A study of Rattus norvegicus with 12 samples.

Results

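The colony-stimulating factors are secreted cytokines that drive the growth and activation of myeloid cells, and 4 of the genes that code for them or share their receptors were followed here across all 12 libraries of the series. Members were the rows of the deposited gene table named Csf1, Csf2, Csf3 and Il34, 4 of 21071 genes listed. All 4 rows were found, and 3 of them, Csf1, Csf2 and Csf3, had enough counts to be tested, among 15650 genes tested in all. In the deposited table Csf1 (ENSRNOG00000018659) is a protein-coding gene on chromosome 2, Csf2 (ENSRNOG00000026805) and Csf3 (ENSRNOG00000008525) both lie on chromosome 10, and Il34 (ENSRNOG00000017602) lies on chromosome 19.

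As background, Csf1, also called M-CSF, keeps monocytes and macrophages alive through the receptor Csf1r and is needed for osteoclasts. Il34 binds the same receptor although its sequence is unrelated to Csf1. Csf2, or GM-CSF, acts on granulocytes and macrophages through a pair of receptor chains, Csf2ra and Csf2rb, and Csf3, or G-CSF, acts on neutrophils through Csf3r. Fibroblasts, chondrocytes and endothelial cells make Csf2 and Csf3 when inflammatory signals reach them, and the AU-rich messengers of both genes are otherwise short-lived.

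The libraries hold RNA of nucleus pulposus cells, which fill the soft centre of an intervertebral disc, cultured from rat, in 4 groups of 3. One group received NPPC-Exo, the exosomes (secreted membrane vesicles) of progenitor cells of that tissue, and another received exosomes of progenitors that overexpressed the microRNA miR-221-3p (miR-Exo). In the other groups either kind of exosome was combined with erastin, an inhibitor of the cystine transporter that provokes ferroptosis, a cell death that depends on iron. Erastin was used at 0.1 to 5 µM over 48 h according to the labels, with no dose for a single library, and NPPC-Exo at 50 µg/mL. The sample descriptions and the table write Model where the titles write erastin. Every group received exosomes, so the comparisons are erastin against none, miR-Exo against NPPC-Exo, and the interaction of both. The labels do not say whether libraries came from separate cultures or animals, and give neither strain, age nor passage, so p-values measure only the spread between libraries, which may be technical.

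Library totals ran from 54616827 to 68865720 counts. A level in CPM is the count relative to the library total scaled by the trimmed mean of M values, and it is used between groups. FPKM, as deposited, also divides by gene length and is used between genes. A library with 0 counts allows up to 0.044 to 0.0565 CPM, from 3 counts, which covers counting error only. The gene row Mir221 held 0.31 ± 0.00882 CPM under NPPC-Exo (SD, n = 3, as for every mean below) against 27.7 ± 1.36 CPM under miR-Exo. When erastin was added these were 0.352 ± 0.0515 CPM and 24.2 ± 0.3 CPM. The disc marker Acan, which codes for the proteoglycan aggrecan, stood at 775 ± 28.1 FPKM with NPPC-Exo. The summed level of 9 of 12 disc markers was 7180 to 8190 CPM there, 7210 to 8680 CPM with miR-Exo, 1250 to 1390 CPM with erastin and NPPC-Exo and 1080 to 1130 CPM with erastin and miR-Exo. Most of it was Acan, at 6390 ± 242 and 912 ± 81.5 CPM without and with erastin under NPPC-Exo. In that comparison 3 of the 8 disc markers tested were called lower, Acan (log2 fold change −2.81 ± 0.07, SE), Col2a1 (−2.18 ± 0.21) and Sox9 (−1.38 ± 0.2). The 2 called higher were Cd24 (0.85 ± 0.1) and Foxf1 (1.19 ± 0.27). Of all genes tested 43.6% were called there, 21.5% higher and 22.1% lower. Among the keratins Krt8 had 143 to 190 counts per NPPC-Exo library. Krt18 had 0 to 6 per library and 6 over the 3 libraries together. No row of the deposited gene table was named Krt19 or Tbxt, so no level is given for them.

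Sequences are shown for the agent that separates the kinds of exosome and for Csf2, the member with the highest log2 fold changes with erastin. The first is the mature miR-221-3p of rat from RefSeq (GRCr8, chrX:6023246-6023268, plus strand), with the seed, bases 2 to 8, in capitals. The others are 30-base windows of the promoters of Csf2 (chr10:38889786-38889815, minus strand) and of its neighbour Il3 (chr10:38908909-38908938, minus strand), also from RefSeq on GRCr8 and written 5′ to 3′ on the gene's strand. The capitals mark the match to the CK-1 element, a short motif described in promoters of several haematopoietic cytokines.
rno-miR-221-3p: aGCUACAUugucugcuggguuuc
Csf2 promoter window: cagGAGATTCCACaactcaggtagttcccc
Il3 promoter window: atgGAGGTTCCATgtcagataaagctgctt

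The match lay at bases −139 to −130 from the start of Csf2 and at −125 to −116 from the start of Il3. Over both strands the element matched 302 of 33469 rat promoters of 300 bases, or 0.902%. No match was found in the Csf2 promoter to the NF-κB pattern GGGRNWYYCC (4.18% of promoters), to the AP-1 sites TGACTCA and TGAGTCA (4.63%) or, on the gene's strand, to TATAAA (8.8%). In the pattern R is A or G, W is A or T, Y is C or T and N is any base. This says only that these letters are not in that promoter sequence. Sites that depart from a pattern are missed, so whether the promoter holds a site that NF-κB binds was not tested. A match is a description of the sequence. Among the 4 members a promoter sequence was at hand for Csf2 only, 1 of 4. The promoters of Csf1, Csf3 and Il34 were not searched, so nothing is said of motifs in them.

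Csf1 was the one member with a high level in every library. Its level was 27.11, 29.92 and 27.71 FPKM with NPPC-Exo and 31.97, 32.7 and 33.12 FPKM with miR-Exo. With erastin it stood at 160.51, 200.45 and 190.83 FPKM under NPPC-Exo and at 176.39, 177.26 and 172.46 FPKM under miR-Exo. All 6 erastin libraries lay above all 6 others, and the lowest of them was replicate 1 of erastin with NPPC-Exo.

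On the CPM scale, Csf1 rose from 136 ± 6.77 to 729 ± 76.5 CPM with erastin under NPPC-Exo. The log2 fold change was 2.42 ± 0.07 (SE), or 5.37-fold (adjusted p 1.94e-11, edgeR quasi-likelihood test over all genes tested, adjusted by Benjamini and Hochberg, as for every adjusted p below unless another tool is named). Under miR-Exo it rose by 2.13 ± 0.07 on the log2 scale, from 148 ± 3.14 to 649 ± 7.07 CPM (adjusted p 3.98e-11). Csf1, Csf2 and Csf3 were called higher with erastin under both kinds of exosome. Csf2 entered the test only through its erastin libraries, so no count over the members is drawn. Of all genes tested 43.6% were called under NPPC-Exo, 21.5% higher and 22.1% lower, and 49.1% under miR-Exo, 24.7% higher and 24.4% lower. In bulk RNA, a change in the number of cells that make a transcript and a change of its amount per cell cannot be told apart.

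Csf2 was close to undetected without erastin. It had 0, 10 and 0 counts in the NPPC-Exo libraries and 7, 5 and 12 counts in the miR-Exo libraries, or at most 0.34 and 0.35 FPKM. With erastin it had 348, 1087 and 787 counts under NPPC-Exo, which are 13.65, 38.51 and 26.91 FPKM, and 832, 811 and 766 counts under miR-Exo, which are 30.56, 29.56 and 29.15 FPKM. The erastin libraries did not overlap the others. Those with miR-Exo lay close together, whereas those with NPPC-Exo ranged from below to above them.

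Csf2 rose with erastin by 7.50 ± 0.63 on the log2 scale under NPPC-Exo (adjusted p 4.94e-07), from 0.0628 ± 0.109 to 11.4 ± 5.25 CPM. Among 15650 genes this was the 45th highest log2 fold change of that comparison. All 10 counts of the NPPC-Exo group came from replicate 2, and without that library the group is at 0. The erastin mean was then 211 times a floor of 3 counts per library, where the ratio of group means with all libraries was 181. The floor covers counting error only and leaves out the spread between libraries, so 211 is no lower bound. With all libraries the 95% interval of the log2 fold change was 6.13 to 8.87. Under miR-Exo Csf2 rose by 6.47 ± 0.56 (adjusted p 6.05e-07), from 0.132 ± 0.0522 to 12 ± 0.268 CPM. Csf2 passed the filter on low counts through its erastin libraries, since 2 of the 6 libraries without erastin were over its minimum and 3 were needed, so its being among the genes tested and called supports no count over the members.

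Csf3 was also low without erastin and was higher with it. It had 19, 4 and 17 counts with NPPC-Exo and 7, 17 and 8 counts with miR-Exo, or 0.05 to 0.21 and 0.08 to 0.2 FPKM. With erastin it had 136, 285 and 257 counts under NPPC-Exo, at 1.82, 3.43 and 2.99 FPKM. Under miR-Exo with erastin it had 681, 617 and 648 counts, at 8.52, 7.67 and 8.4 FPKM. The latter lay above all other libraries, and replicate 1 was the lowest of the NPPC-Exo libraries with erastin, as it was for Csf1 and Csf2.

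Csf3 rose with erastin by 3.84 ± 0.4 under NPPC-Exo (adjusted p 4.03e-06), from 0.24 ± 0.144 to 3.49 ± 1.03 CPM, which is 14.3-fold. Under miR-Exo it rose by 5.74 ± 0.42 (adjusted p 1.15e-07), from 0.18 ± 0.0986 to 9.71 ± 0.576 CPM, which is 53.6-fold. Unlike Csf2, it also reached the filter's minimum in 3 libraries without erastin.

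Il34, the second ligand of Csf1r, was not tested for want of counts. It had 14, 0 and 0 counts with NPPC-Exo, 2, 0 and 0 with miR-Exo, 0 in all 3 libraries of erastin with NPPC-Exo, and 0, 3 and 0 in those of erastin with miR-Exo. At most it reached 0.11 FPKM, in NPPC-Exo replicate 1, which held 14 of its 19 counts. With no filter on low counts no comparison of Il34 was called, with adjusted p from 0.155 to 0.994 by edgeR. At this depth a change of Il34 was not detectable.

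**Figure D1:**
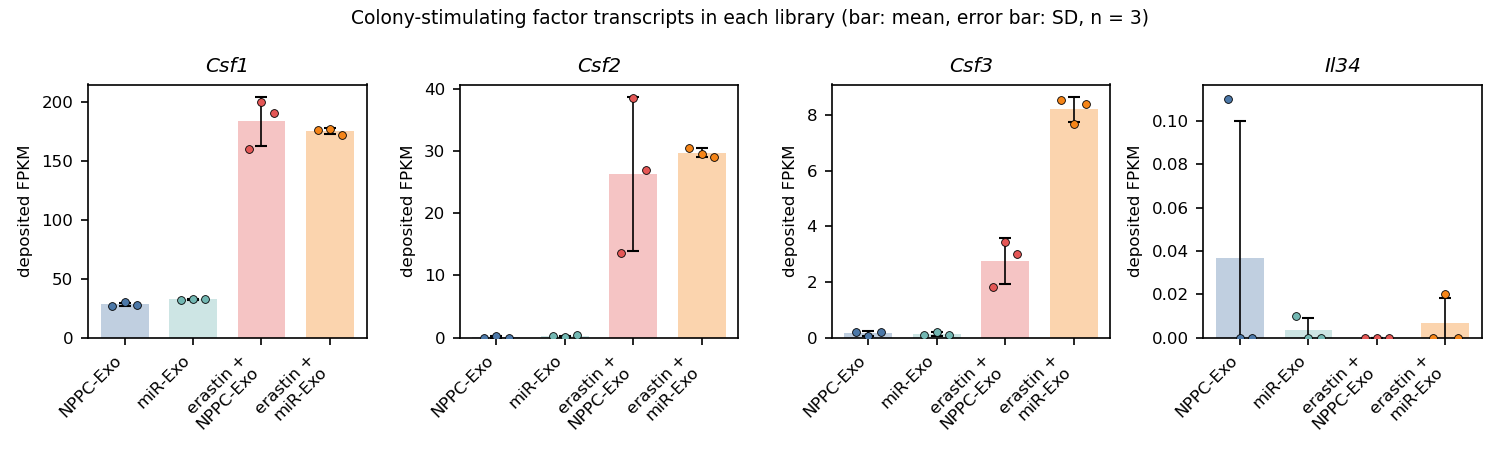
Deposited FPKM (vertical axis, its own scale for each gene) of Csf1, Csf2, Csf3 and Il34 in the 4 groups; points are libraries, bars are means of 3 libraries and error bars are the SD, not drawn below 0. Csf1, Csf2 and Csf3 were higher in all 6 erastin libraries than in the other 6, Csf3 was highest with erastin and miR-Exo, and Il34 stayed at or under 0.11 FPKM.

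With the genes ordered by length-scaled level, Csf1 came first in all 12 libraries, and in all 6 erastin libraries Csf2 came next, then Csf3, and Il34 last. Without erastin Csf2 and Csf3 could not be ordered: Csf2 was the higher in NPPC-Exo replicate 2 and in miR-Exo replicates 1 and 3, and Csf3 in the others. Csf1 made up 98.7 to 99.3% of the summed FPKM of the 4 genes without erastin, 82.7 to 91.2% with erastin and NPPC-Exo and 81.9 to 82.6% with erastin and miR-Exo. Csf2 held 7.76 to 15.9% with erastin and NPPC-Exo and 13.8 to 14.2% with erastin and miR-Exo. Csf3 held 1.03 to 1.42% and 3.58 to 4% in the same groups, which did not overlap.

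**Figure D2:**
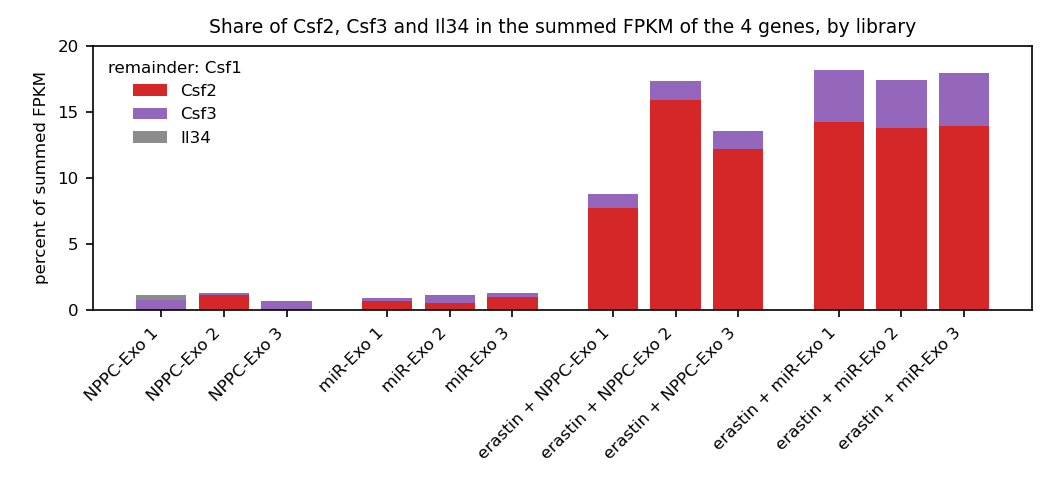
Share of Csf2 (red), Csf3 (purple) and Il34 (grey) in the summed FPKM of the 4 genes (vertical axis, percent) in each of the 12 libraries (horizontal axis); Csf1 makes up the remainder. Shares of Csf3 ran from 3.58 to 4% with erastin and miR-Exo and from 1.03 to 1.42% with erastin and NPPC-Exo.

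Between the kinds of exosome without erastin, Csf1 and Csf3 were not called by edgeR, and neither was Csf2. Csf2 was in the test only through its erastin libraries, so no count over the members is drawn. Of all genes tested 10.7% were called, 4.15% higher and 6.52% lower. None of the members tested had an unadjusted p under 0.05, and DESeq2 and limma called none of them. Csf1 was 0.13 ± 0.07 higher on the log2 scale with miR-Exo (95% interval −0.02 to 0.27, adjusted p 0.25), although its miR-Exo libraries, at 145 to 152 CPM, lay just above the NPPC-Exo libraries at 131 to 144 CPM. The interval was −1 to 3.21 for Csf2 and −1.52 to 0.66 for Csf3, with counts of 0 to 19 per library in these 2 genes.

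With erastin present, Csf3 was higher with miR-Exo than with NPPC-Exo by 1.48 ± 0.32, or 2.78-fold (95% interval 0.78 to 2.17, adjusted p 0.00352), and all 3 libraries lay above the others. Of all genes tested 31.3% were called, 15.6% higher and 15.8% lower. Csf2 did not pass the test, with a difference of 0.08 ± 0.38 (95% interval −0.74 to 0.9). Csf1 did not pass either, at −0.17 ± 0.07 (95% interval −0.31 to −0.03, adjusted p 0.0673), with overlapping groups.

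The call of Csf1 rested on the settings. Its adjusted p ran from 0.0264 to 0.529 over the alternatives, and without replicate 1 of erastin with NPPC-Exo, the library with the lowest total, its difference was −0.27 ± 0.05 (adjusted p 0.00143). Without that library Csf3 was still called, at 1.23 ± 0.34 (adjusted p 0.0193), while the difference of Csf2 was −0.25 ± 0.37 in place of 0.08 (adjusted p 0.685). Over the erastin libraries the ratio of Csf2 to Csf3 in FPKM was 7.5, 11.2 and 9 with NPPC-Exo and 3.59, 3.85 and 3.47 with miR-Exo.

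The interaction asks whether the change with erastin differed between the kinds of exosome. Csf3 had 1.91 ± 0.6 (95% interval 0.61 to 3.2), a larger rise under miR-Exo, and Csf1 had −0.30 ± 0.09 (95% interval −0.5 to −0.1), a smaller one. Neither passed, with adjusted p of 0.0535 and 0.0536, and Csf2 had −1.03 ± 1.04 (adjusted p 0.585). Of all genes tested 12.8% were called by edgeR, 5.81% higher and 7.01% lower. By the other measures Csf1 and Csf3 had an unadjusted p under 0.05, DESeq2 called both, and limma on FPKM called Csf3 with either pseudocount. Over the alternatives the adjusted p ran from 0.00219 to 0.0752 for Csf3 and from 0.0137 to 0.106 for Csf1. Csf3 was called without NPPC-Exo replicate 2 (2.32, adjusted p 0.017) or miR-Exo replicate 2 (2.44, adjusted p 0.032), and Csf1 without replicate 1 of erastin with NPPC-Exo (−0.41, adjusted p 0.00349).

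**Figure D3:**
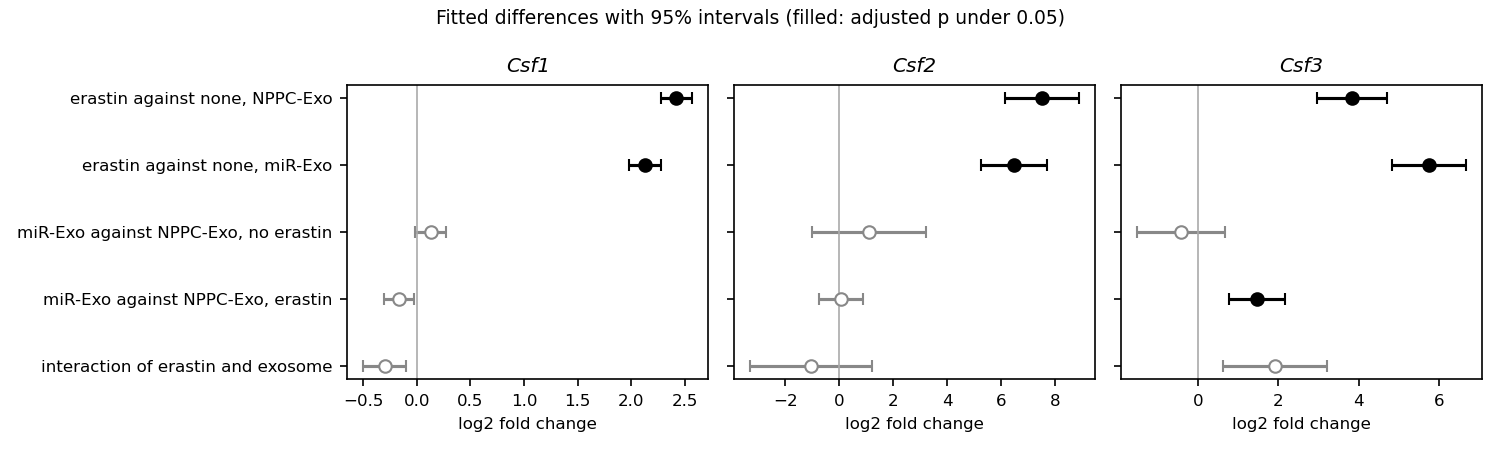
Log2 fold change (horizontal axis, its own scale for each gene) of Csf1, Csf2 and Csf3 in the 5 comparisons (vertical axis), with 95% intervals from the spread between libraries; filled points had an adjusted p under 0.05. All 3 genes rose with erastin under both kinds of exosome, and between the kinds of exosome only Csf3 with erastin was called. Csf2 was tested only through its erastin libraries.

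Receptors of these factors were scarce. Csf1r, the receptor of Csf1 and Il34, had 12 to 34 counts in every library, at most 0.13 FPKM, and was not called in any comparison. Csf2ra, the ligand-binding chain for Csf2, had 46 to 79 counts with miR-Exo and 7 to 19 with erastin and miR-Exo, a log2 fold change of −2.38 ± 0.65 (adjusted p 0.00833). Under NPPC-Exo it had 0.82 ± 0.62 and was not called, and its interaction was −3.20 ± 0.9 (adjusted p 0.0354). Csf2rb and Csf3r were looked up, but no row of the deposited gene table had either name, so no level is given for them.

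Ptprz1, a receptor-type phosphatase that also binds Il34, had few counts without erastin. It had 0, 0 and 22 counts with NPPC-Exo (in rising order) against 116 to 151 with erastin, a log2 fold change of 3.89 ± 0.95 (adjusted p 0.00455), which DESeq2 did not call (adjusted p 0.11). Under miR-Exo it had 0, 0 and 20 counts against 456 to 595, at 6.1 ± 0.97 (adjusted p 0.000167), and reached 1.09 ± 0.121 FPKM. Like Csf2, it passed the filter on low counts through its erastin libraries, with 2 of the 6 others over the minimum, so its call supports no count over the list. The difference between the kinds of exosome with erastin was 1.97 ± 0.73 (adjusted p 0.0556, and 0.0379 with library size alone). Sdc1, a proteoglycan of the cell surface that binds Il34, was abundant in all groups, at 58.9 to 73 FPKM as group means. It fell by 0.16 ± 0.05 with erastin under NPPC-Exo (log2 fold change −0.16, adjusted p 0.0274), but with library size alone its change was 0.12.

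Adam17, a protease that sheds membrane-bound Csf1 and its receptor, rose under miR-Exo from 146 ± 9.64 to 227 ± 11.9 CPM with erastin, by 0.64 ± 0.07 (adjusted p 5.16e-06). Under NPPC-Exo it had −0.08 ± 0.07, and the interaction of 0.72 ± 0.1 was called (adjusted p 0.000979). The kin of Csf2 at the level of ligand, Il3, which is its neighbour on the chromosome and holds the same promoter element, had 3 counts in 1 library of erastin with miR-Exo and 0 in the other 11. Il3ra and Il5ra, binding chains that pair with the shared receptor chain of Csf2, were not called with erastin under either exosome, and Il5ra was called higher with erastin and miR-Exo, at 46 to 51 counts, than with erastin and NPPC-Exo, at 0 to 7 counts (adjusted p 0.0286). Of the 11 genes of receptors and kin 7 were tested, Ptprz1 only through its erastin libraries, so no count over the list is drawn. Beside Ptprz1, only Sdc1 was called with erastin under NPPC-Exo, lower, where 43.6% of all genes were called. Under miR-Exo Adam17 was called higher and Csf2ra lower, where 49.1% of all genes were called. The median over the 7 was −0.0781 under NPPC-Exo, against 0.0175 over all genes, and −0.0215 under miR-Exo, against 0.0287.

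Below the receptors, Jak2, the kinase that the Csf2 and Csf3 receptors use, rose with erastin from 48.2 ± 4.4 to 89.4 ± 13.2 CPM under NPPC-Exo and from 49.5 ± 5.62 to 175 ± 6.4 CPM under miR-Exo. The log2 fold changes were 0.89 ± 0.11 (adjusted p 1.64e-05) and 1.82 ± 0.11 (adjusted p 1.73e-08), with an interaction of 0.93 ± 0.15 (adjusted p 0.00257). Cish, a feedback inhibitor that STAT5 switches on, rose by 1.03 ± 0.18 and 1.56 ± 0.18. Stat5a rose by 0.4 ± 0.11 and 0.45 ± 0.1. Under NPPC-Exo 2 were called lower: Stat3, which the Csf3 receptor activates, had −0.36 ± 0.05 (−0.08 and not called with library size alone), and Socs2, a feedback inhibitor, had −1.52 ± 0.35. Under miR-Exo Stat3 had 0.03 ± 0.05, with an interaction of 0.39 ± 0.07 (adjusted p 0.00484), Socs2 had −0.34 ± 0.33, and Stat5b had −0.61 ± 0.11 and was called lower. Of 15 signalling genes 13 were tested: 6 were higher and 2 lower under NPPC-Exo (median 0.205, against 0.0175 over all genes, of which 43.6% were called). Under miR-Exo 5 were higher and 1 lower (median 0.103, against 0.0287, with 49.1% of all genes called), so that 6 of 13 is near the share over all genes. With library size alone 9 were higher and 1 lower under either.

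Genes that act on AU-rich messengers such as those of Csf2 and Csf3 moved in both directions. Zfp36, which codes for tristetraprolin and speeds the decay of these messengers, fell with erastin from 74.6 ± 11 to 41.6 ± 2.27 CPM under NPPC-Exo and from 102 ± 6.03 to 24.9 ± 6.68 CPM under miR-Exo. Its log2 fold changes were −0.84 ± 0.16 and −2.04 ± 0.16, with an interaction of −1.19 ± 0.22 (adjusted p 0.00521). Zfp36l1 and Zfp36l2, also on this list, were called higher under NPPC-Exo, by 0.72 ± 0.21 and 0.3 ± 0.11. Under miR-Exo they had −0.36 ± 0.2 and 0.07 ± 0.11 and were not called. Zc3h12a, the ribonuclease Regnase-1 of inflammatory messengers, rose from 14.6 ± 1.04 to 97.1 ± 4.88 CPM, by 2.73 ± 0.11, and under miR-Exo by 3 ± 0.11.

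Hnrnpd, whose product AUF1 binds AU-rich elements, rose by 0.59 ± 0.07 under either exosome, and Rc3h1, which codes for Roquin, by 0.24 ± 0.07 and 0.48 ± 0.07. All 10 genes of this list were tested; 8 were higher and 1 lower with erastin under NPPC-Exo (median 0.271, against 43.6% of all genes called and a median of 0.0175), and 6 were higher and 1 lower under miR-Exo (median 0.247, against 49.1% and 0.0287). Between the kinds of exosome with erastin, 0 were higher and 4 lower with miR-Exo (median −0.245, against 0.011 over all genes, of which 31.3% were called), and 2 higher and 3 lower with library size alone.

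Factors reported to act on promoters of these cytokines included genes called higher and genes called lower with erastin, and NF-κB subunit genes were among the higher. Relb rose by 2.19 ± 0.15 under NPPC-Exo and 1.78 ± 0.15 under miR-Exo, Nfkb2 by 1.54 ± 0.09 and 1.04 ± 0.09, and Nfkb1 by 1.13 ± 0.08 and 1.28 ± 0.08. Rela rose by 0.28 ± 0.07 and 0.2 ± 0.07, while Rel, named after its values were seen, had 0.57 ± 0.23 and 0.55 ± 0.23 and was not called. The AP-1 genes of the list went in different directions. Fos fell, with −1.35 ± 0.18 and −2.07 ± 0.18, while Fosl1 rose by 0.91 ± 0.12 and 0.46 ± 0.12. Jun had 0.35 ± 0.22 under NPPC-Exo, which was not called, and −1.51 ± 0.23 under miR-Exo, which was called lower. Ets1 rose by 0.54 ± 0.05 and 0.35 ± 0.05, and Ets2 by 0.38 ± 0.09 and 0.73 ± 0.09. Runx1 (−0.92 ± 0.29) and Nfatc1 (−0.97 ± 0.13) were called lower under miR-Exo and not called under NPPC-Exo. All 15 genes of the list were tested, with 7 higher and 1 lower under NPPC-Exo (median 0.457), and 7 higher and 4 lower under miR-Exo (median 0.35). Of all genes 43.6% and 49.1% were called, 21.5% and 24.7% higher. With library size alone these were 10 and 1, and 9 and 3.

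With erastin, 7 of these 15 genes were lower and 1 higher with miR-Exo than with NPPC-Exo (median −0.303), and 7 lower and 3 higher with library size alone. Nfkb2 had −0.56 ± 0.09, Relb −0.5 ± 0.14, Ets1 −0.55 ± 0.05 and Jun −1.10 ± 0.23. Fos had 0.67 ± 0.18. In the interaction 0 were higher and 4 lower. Of all genes 31.3% were called between the kinds of exosome with erastin and 12.8% in the interaction.

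**Figure D4:**
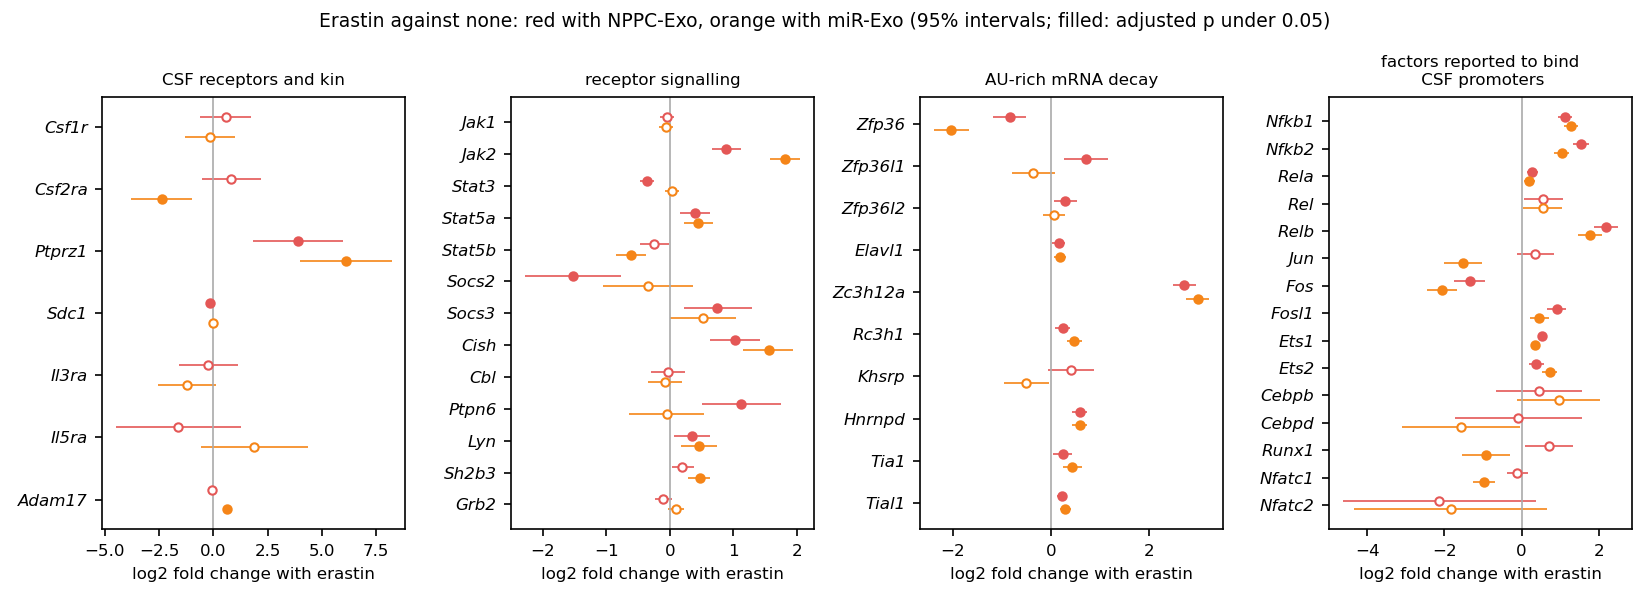
Log2 fold change with erastin (horizontal axis, its own scale for each list) of the tested genes in 4 lists (vertical axes), under NPPC-Exo in red and under miR-Exo in orange, with 95% intervals; filled points had an adjusted p under 0.05. Among others, Jak2, Zc3h12a, Fosl1, Ets1, Ets2 and the NF-κB subunit genes Nfkb1, Nfkb2 and Relb were called higher under both. Zfp36 and Fos were called lower under both. Ptprz1 was tested only through its erastin libraries.

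The genes whose pattern over the 12 libraries was most like that of each member were found by Pearson correlation of log2(CPM + 1) among 10958 other genes. For Csf1 they were Akr1b8, an aldo-keto reductase gene, Gbp5, an interferon-driven GTPase gene (each 0.998), and Nfkbia, which codes for an inhibitor of NF-κB (0.997). For Csf2 they were the adhesion gene Vcam1 (0.997) and the chemokine genes Cxcl1 (0.995) and Ccl7 (0.994). For Csf3 they were Tmem150c (0.994), the chemokine gene Ccl20 (0.993) and Nos2, the inducible nitric oxide synthase gene (0.992). All points share the step with erastin, and 539, 463 and 287 genes had a correlation over 0.95 with Csf1, Csf2 and Csf3, so the choice among them is loose. By Spearman correlation 0 of the 3 genes named for each member were chosen again.

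With erastin, Nos2 was at 10.8 ± 6.12 CPM under NPPC-Exo and at 62.3 ± 2.6 CPM under miR-Exo, Ccl20 at 6.1 ± 1.37 and 26.9 ± 1.32 CPM, and Tmem150c at 1.8 ± 0.47 and 4.52 ± 0.39 CPM. For the genes most like Csf2 the same groups had 35.5 ± 13.2 and 51.1 ± 1.53 CPM of Vcam1, 178 ± 68.9 and 289 ± 12.1 CPM of Cxcl1 and 202 ± 53.6 and 218 ± 5.94 CPM of Ccl7. These genes were chosen for their likeness over the same libraries, so their levels are a description and no test of them is given.

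Genes that neighbour the members, 2 protein-coding genes on each side by the RefSeq order, moved to varied degrees with erastin. Next to Csf3, Psmd3, a proteasome gene, rose by 0.41 ± 0.05 with erastin under NPPC-Exo and 0.45 ± 0.05 under miR-Exo, and Med24, a Mediator subunit gene, had −0.01 ± 0.08 and −0.23 ± 0.08. Next to Csf2 on the side away from Il3, the collagen-modifying enzyme gene P4ha2 rose by 0.43 ± 0.06 and 0.62 ± 0.06. Next to Csf1, Ahcyl1 had 0.09 ± 0.04 and 0.31 ± 0.04, and Eps8l3 had 0 counts in all 6 libraries without erastin, 4 to 12 with erastin and NPPC-Exo and 23 to 35 with erastin and miR-Exo. Eps8l3 entered the test only through its erastin libraries, so no call is given for it. Larger changes were seen in Gstm5 near Csf1 (0.9 ± 0.12 and 1.56 ± 0.13) and Thra near Csf3 (−0.61 ± 0.08 and −0.55 ± 0.08). Near Il34, Mtss2 had −0.92 ± 0.14 and −1.71 ± 0.14, Sf3b3 had 0.78 ± 0.06 and 0.79 ± 0.06, and Vac14 had 0.04 ± 0.08 and −0.06 ± 0.08. Of all genes tested 43.6% and 49.1% were called with erastin.

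Markers of myeloid cells, which respond to these factors and can make them, moved in part with erastin. The summed level of 9 of 12 monocyte and macrophage markers was 7.91 to 9.69 CPM with NPPC-Exo, 10.2 to 11.6 CPM with miR-Exo, 13.4 to 17.8 CPM with erastin and NPPC-Exo and 22.7 to 30.1 CPM with erastin and miR-Exo. Of these Cd14, at 7.34 ± 1.01, 8.3 ± 0.7, 13.3 ± 2.29 and 23.4 ± 3.98 CPM in the same order, made up most, and Cd68 rose as well, by 1.09 ± 0.37 and 1.12 ± 0.35. Of the defining markers, Adgre1 was at 0 in 3 groups, Aif1 was at 0 in both groups without erastin, and Spi1 was at no more than 0.148 CPM as a group mean. Itgam (CD11b) had 43 to 55 counts in the miR-Exo libraries, 0.79 ± 0.0669 CPM, and 0 to 10 with erastin and miR-Exo, a log2 fold change of −3.91 ± 1.78 that was not called (adjusted p 0.0866). No row of the deposited gene table was named Ptprc or Tyrobp, so no level is given for them. Neutrophil markers, 3 of 8, summed to 0 CPM with NPPC-Exo and with erastin and miR-Exo, and to at most 0.138 CPM with miR-Exo and 0.178 CPM with erastin and NPPC-Exo. T cell markers, 5 of 7, ran from 0.377 to 0.995 CPM, 0.138 to 0.866 CPM, 0.892 to 1.58 CPM and 0.844 to 1.34 CPM in the order given for Cd14. Endothelial markers, 5 of 7, ran from 7.54 to 7.98 CPM, 7.19 to 8.54 CPM, 3.81 to 4.25 CPM and 3.74 to 4.15 CPM. Of these Erg fell with erastin under NPPC-Exo from 6.45 ± 0.648 to 0.711 ± 0.146 CPM, while Tek rose by 1.32 ± 0.2 and, under miR-Exo, by 0.98 ± 0.2. Vwf had 1.3 ± 1.25 and 2.37 ± 1.29 and was not called. Their part in the results was not tested.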

How the data were processed

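The authors deposited 1 table with raw counts per gene and FPKM, which per the file headers belong to the same 12 libraries. StringTie and the build mRatBN7.2 are named per the submitters' processing notes. Aligner, counting tool, strand setting and filters remain not given in the sources used here. Libraries marked the strand, per the labels. Coordinates in the table reach 282702424 on chromosome 1, so its build is uncertain and none is printed; RefSeq sequences are on GRCr8. Even numbers made up 57.3% of the counts between 1 and 20; whether mates were counted singly was not tested, and halved counts were an alternative.

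Counts were fitted with edgeR 4.0.16 (R 4.3.3) on 4 group means over all 12 libraries, after filterByExpr kept 15650 genes, with TMM factors from 0.877 to 1.15. A gene is called at an adjusted p under 0.05 over all genes of a comparison. SE is the log2 fold change over the root of the F statistic. Alternatives used DESeq2 1.42.0 and limma 3.58.1, the latter on log2(FPKM + 1) and log2(FPKM + 0.1). The fit was tested on simulated data. Libraries of a group differed by more than sampling noise. Replicate numbers are shared by the groups. Deviations of same-numbered libraries correlated over 0.1 in all 3 pairs of NPPC-Exo with miR-Exo without erastin (0.117 to 0.333). Among the other pairs of groups 1 of 15 did. A pairing of NPPC-Exo with miR-Exo without erastin would thus come from the data and not from the labels. The fit on 4 group means did not use the replicate numbers, so its tests treat all libraries as unpaired. An alternative with a replicate block used the numbers in all 4 groups. No fit paired only NPPC-Exo with miR-Exo without erastin. Named genes are the 4 members, called list genes (at most 5 a list and comparison), the receptors, and the 3 genes most like each member with a mean of at least 1 FPKM in their highest group. Neighbours, markers and uncalled kin of the receptors were added beside these. So were Rela, Fosl1, Jun, Ets1, Ets2, Runx1, Nfatc1, Zfp36l1 and Zfp36l2 with erastin, after their values were seen. The members and lists were chosen with earlier results of these data known.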

Additional observations from a re-analysis of the deposited data

How the results depend on the processing

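The rises of Csf1, Csf2 and Csf3 with erastin kept their direction and call in 132 of 132 refits, and that of Csf3 with miR-Exo under erastin in all of its refits, from 1.23 to 1.63 without 1 library each and from 1.32 to 1.59 otherwise. In the main setting Csf2 was tested only through its erastin libraries, so its refits add no count over the members. Between the kinds of exosome with erastin, Csf3 was called in the main setting. Csf1 was called beside it with RLE size factors, with at least 5 CPM in 3 libraries or with DESeq2. Without 1 library each, Csf3 stayed called and Csf1 was called in some of the fits. In the interaction no member was called in the main setting. Csf1 was called with RLE size factors or halved counts, Csf3 with limma at a pseudocount of 1 or 0.1, and both with at least 5 CPM or DESeq2. Without 1 library each, at most 1 of them was called. The interaction of Csf2 turned from −1.03 to 0.10 with limma on log2(FPKM + 1), and its difference between exosomes with erastin ran from −0.25 (without replicate 1 of erastin and NPPC-Exo) to 0.42 without 1 library each; the cause was not tested. Fitted values of Csf2 against NPPC-Exo without its replicate 2 (12.46 for erastin) rest on a group at 0 and are no bounds. With a replicate block the members called in the interaction were 1, Csf1 (adjusted p 0.0499, against 0.0536), the call of no other member changed, genes called went from 6816 to 6720 with erastin under NPPC-Exo from 1669 to 1560 between exosomes without erastin and from 2006 to 1928 in the interaction, and 5 of 12 libraries correlated best with their own number. Over all genes, calls in the interaction fell from 2006 to between 1205 and 1300 without NPPC-Exo replicate 2 (1218), miR-Exo replicate 1 (1272), erastin and NPPC-Exo replicate 3 (1205) or erastin and miR-Exo replicate 1 (1227) or 2 (1300), and those between exosomes without erastin from 1669 to 970 without NPPC-Exo replicate 2 and 1042 without miR-Exo replicate 2. With library size alone in place of TMM the median of all genes with erastin moved from 0.0175 to 0.3 under NPPC-Exo and from 0.0287 to 0.334 under miR-Exo, and the share of higher genes among those called from 49.3 to 77.8% and from 50.4 to 76.4%; log2 ratios of deposited FPKM exceeded those of CPM by 0.07 to 0.39. Depth limits Csf2 and Csf3 without erastin and Il34 throughout.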
